A study of Homo sapiens with 4 samples.

Results

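The TRIM and RNF genes measured in CWR22Rv1 cells were taken as every probe whose gene symbol begins with TRIM or RNF followed by a number and whose detection p-value was under 0.05 on at least 2 arrays. This gave 131 of the 20750 tested probes, 52 for 39 TRIM genes and 79 for 64 RNF genes, or 103 of 11894 named genes. A further 22 named probes were detected on 1 array only and were not tested. With them, 15 genes had no tested probe, 12 of them TRIM genes such as TRIM6, TRIM16, TRIM17 and TRIM62, and 3 of them RNF152, RNF186 and RNF212. At the limit, the second lowest detection p-value was 0.0468 for an RNF32 probe just inside and 0.0507 for the TRIM16L probe just outside. Of the 103 genes, 99 are annotated as protein coding and 4 as transcribed pseudogenes, which are RNF4BP, RNF5P1, RNF126P1 and RNF216P1. The name therefore covers genes with a shared symbol, and these 4 encode no ligase by annotation.

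Ubiquitin ligases (E3 enzymes) bring a ubiquitin-loaded E2 enzyme to a protein and so mark it for degradation, sorting or signalling. In the RING class a zinc-binding RING domain holds the E2. Most but not all TRIM proteins carry a RING, B-boxes and a coiled coil, and many act in antiviral defence or in chromatin. RNF proteins share little beyond the RING and include membrane, DNA repair and chromatin ligases. SIAH2, the ligase targeted in these cells, is a RING ligase of another family.

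CWR22Rv1 is a human prostate carcinoma line from a xenograft that relapsed after castration. Control cells were infected with the empty vector pLKO.1 (2 arrays) and knockdown cells with the same vector carrying a Siah2 shRNA (2 arrays), all grown with puromycin at 1 ug/ml. Serum was listed at the same percentage for every array. The labels name 1 shRNA and no rescue, and do not give the cultures behind each group's arrays, and the p-values rest on array-to-array spread that may be purely technical. In RNA from whole cultures, fewer cells of a type and less RNA per cell cannot be told apart. The comparison asks which transcripts differ once Siah2 is lowered.

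Between 19862 and 20632 of 47228 probes were detected per array (42.1% to 43.7%). Of the 153 named TRIM and RNF probes, between 127 and 135 were detected per array. Each of the 153 was detected on at least 1 array, so these rates cannot be compared. All 8 luminal prostate markers were detected on every array. Of these, 5 fell (SLC45A3, HOXB13, STEAP2, TMPRSS2 and FOLH1), while KRT8 (0.34), KRT18 (-0.09) and FOXA1 (0.10) were not called. The summed signal of the 8 was 23340 and 31790 on the pLKO.1 arrays against 19560 and 16960 on the shSiah2 arrays. Summed and linear marker signals here are intensities before normalization. The mean intensity over all probes was 675.0 and 846.2 on the pLKO.1 arrays against 725.1 and 649.8 on the shSiah2 arrays. Of 7 stromal markers, 5 had a named probe and 3 to 4 of these were detected. Their summed signal was 2310 and 3247 against 4602 and 4523. Of the 4 tested, LUM rose by 1.32 and ACTA2 by 1.10, DCN fell by 1.98 and COL1A1 was at 0.11. Of 8 leukocyte and endothelial markers, 2 had a named probe, and 1 to 2 of these were detected (CD68 on all arrays). Their summed signals were 1445 and 1926 against 2402 and 1573. Of 4 basal markers, KRT15 alone had a named probe. It was detected on the pLKO.1 arrays only, at 150.0 and 161.6 against 135.7 and 134.6. Listed markers without a named probe, such as PTPRC, PECAM1, KRT5 and TP63, were not read, so their presence is unknown. The part of these markers in the results below was not tested. SIAH2 itself lay at 8.08 and 8.33 on the pLKO.1 arrays and at 6.20 and 6.51 on the shSiah2 arrays (log2 of the normalized intensity), a fall of 1.85 (SE 0.251, adjusted p = 0.00117 by limma). SIAH2 was thus lower on both knockdown arrays, with no overlap between the groups, and the change was -1.09 without background correction.

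Few TRIM and RNF probes were called, at a share near that of all tested probes. Of the 131 tested probes, 2 rose and 5 fell at an adjusted p under 0.05, which is 5.34% against 6.19% of all tested probes. The falls were 2 probes of TRIM36 and 1 each of TRIM26, TRIM2 and RNF149, and the rises were RNF150 and RNF214. The TRIM2 probe entered the test through the pLKO.1 group alone. By family, 4 of 52 TRIM probes fell and 0 rose (7.69%), and 1 of 79 RNF probes fell and 2 rose (3.80%), beside 3.72% that fell and 2.47% that rose among all probes. At an unadjusted p under 0.05, 10 TRIM and 16 RNF probes passed, 19.8% of the members against 21.1% of all probes. The shares of members called were thus near those of the whole array, and the difference between the families was not tested. Without pLKO.1 replicate 1 the count was 1, RNF150, and the share of all probes called dropped to 2.51%. Without shSiah2 replicate 2 the count was 4, and 3.86% of all probes were called. With no filter on dim probes, RNF149 and RNF150 alone passed.

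**Figure D1:**
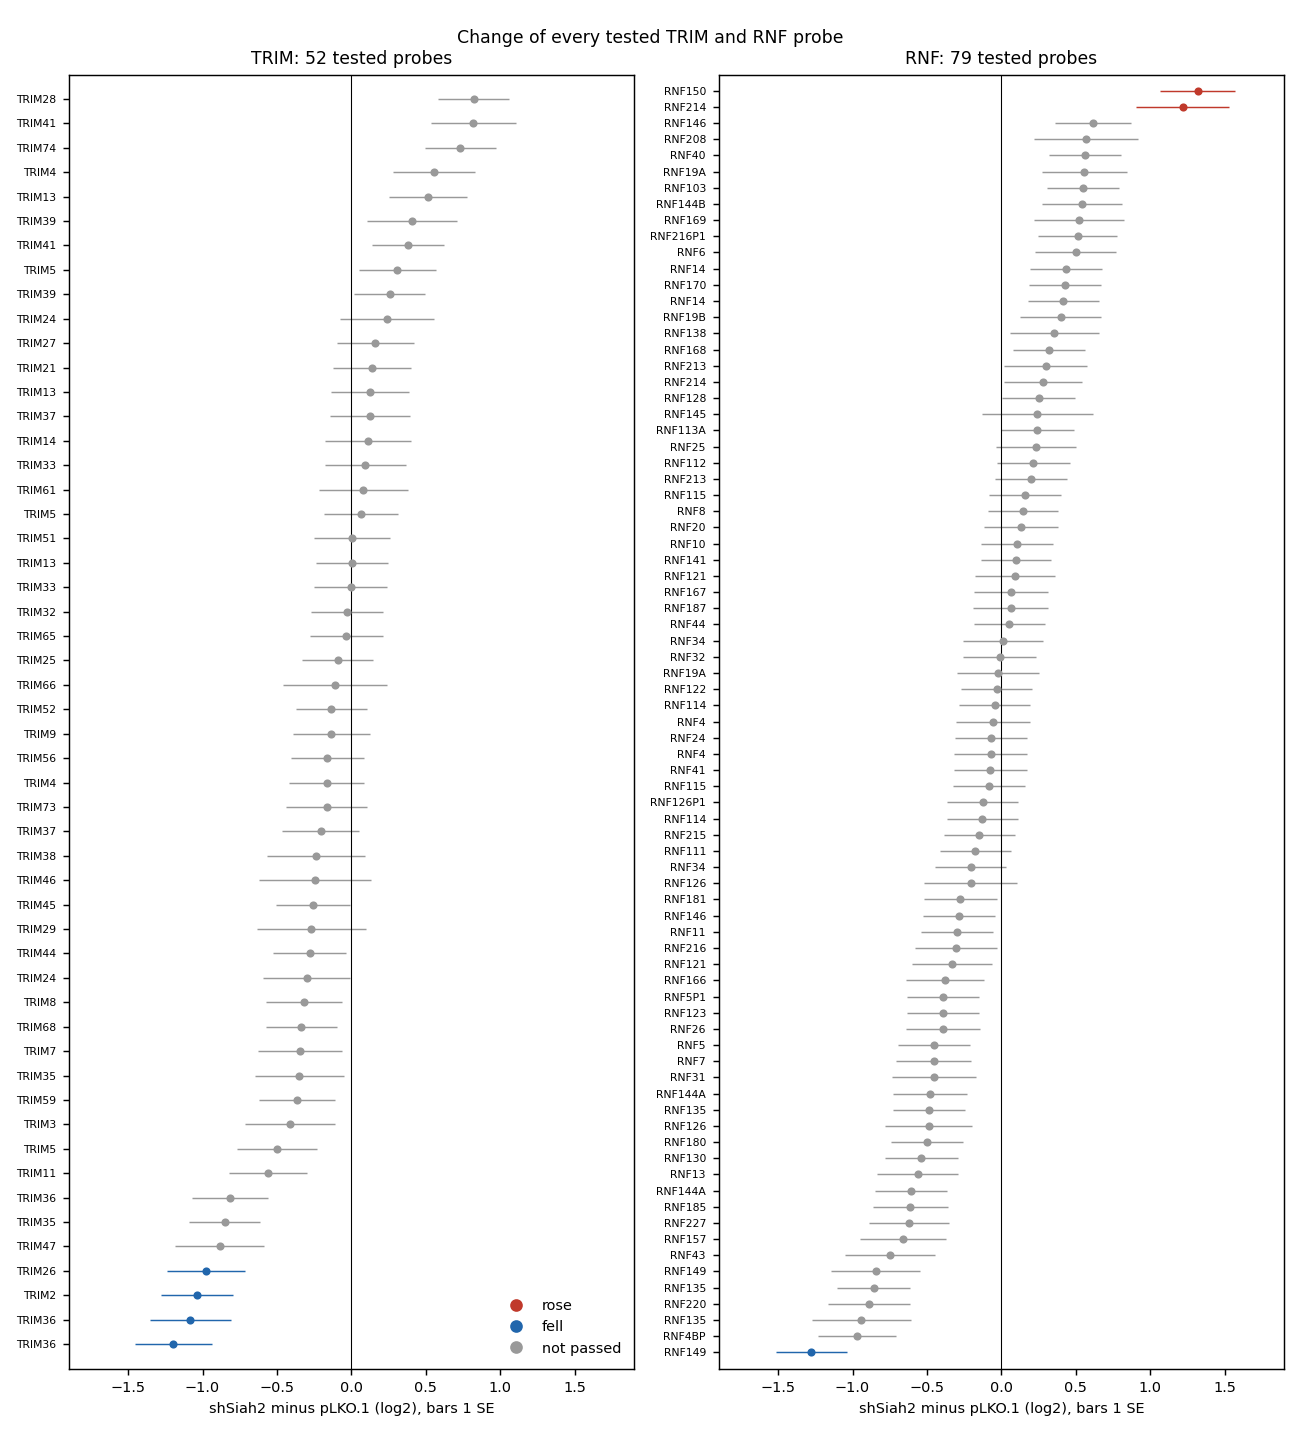
Change of each tested TRIM probe (left, 52) and RNF probe (right, 79), as shSiah2 minus pLKO.1 in log2 units on the x axis, ordered by size, with bars of 1 SE from limma. Blue points fell and red points rose at an adjusted p under 0.05: 4 TRIM probes at the low end, and 1 low and 2 high RNF probes, while all others are grey.

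Most changes were below 2-fold. For TRIM probes the median change was -0.13, with the middle of the distribution between -0.34 and 0.12 (quartiles) and extremes of -1.197 and 0.82. For RNF probes the median was -0.06, with quartiles of -0.42 and 0.25 and extremes of -1.28 and 1.32. All tested probes had a median of 0.02, with quartiles of -0.27 and 0.30 and extremes of -4.71 and 4.26. A change of at least 2-fold was seen in 6 member probes, 4.58%, against 5.57% of all probes. Both shSiah2 arrays lay below both pLKO.1 arrays for 44 members (33.6%) and above them for 27 (20.6%), where all probes gave 24.1% below and 26.2% above. That lower side held 30 of the 79 RNF probes and 14 of the 52 TRIM probes. Dropping shSiah2 replicate 2 brought the TRIM median to -0.039, and dropping pLKO.1 replicate 1 to -0.077. The RNF median moved to -0.128 when pLKO.1 replicate 1 was dropped, to -0.091 for the other pLKO.1 array, to -0.020 for shSiah2 replicate 1 and to -0.093 for shSiah2 replicate 2.

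**Figure D2:**
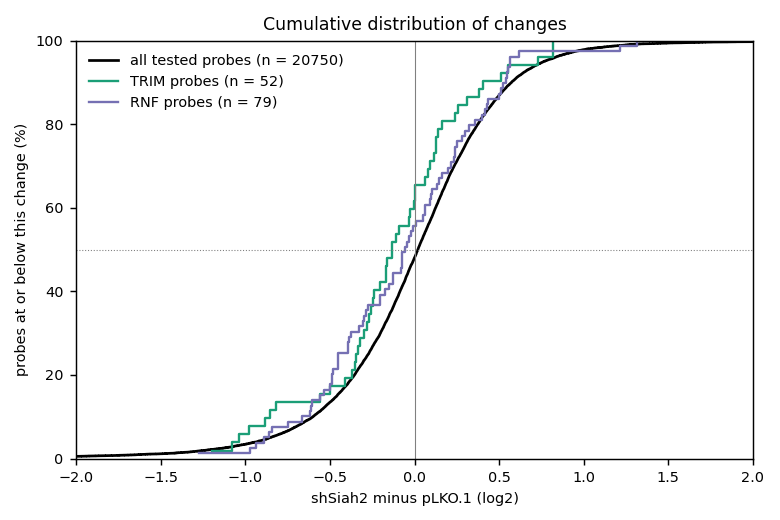
Share of probes (y axis, percent) at or below each change (x axis, shSiah2 minus pLKO.1, log2) for all tested probes, TRIM probes and RNF probes. The TRIM curve crosses 50% at -0.13 and the RNF curve at -0.06, left of all probes at 0.02.

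TRIM36 was lower on all of its probes. It encodes a microtubule-associated TRIM ligase and has been described as androgen-responsive in prostate cancer cells. One probe (ILMN_2361737) lay at 8.11 and 7.83 on the pLKO.1 arrays and at 6.98 and 6.56 on the shSiah2 arrays, and fell by 1.197 (SE 0.259, adjusted p = 0.0194 by limma). A dimmer one (ILMN_1674580) lay at 6.62 and 7.10 against 5.56 and 5.999, and fell by 1.08 (SE 0.273, adjusted p = 0.0388 by limma). The platform annotation ties these 2 probes to the same transcript. The brightest probe (ILMN_1724350), tied to another TRIM36 transcript, lay at 9.59 and 9.79 against 8.67 and 9.08, a change of -0.82 that did not pass (SE 0.255, adjusted p = 0.0859 by limma). No shSiah2 value reached a pLKO.1 value of the same probe. Without pLKO.1 replicate 1 no TRIM36 probe passed. Of the 2 called probes, the first was also lost without shSiah2 replicate 2 (-0.98), and the second without pLKO.1 replicate 2 (-0.84) or shSiah2 replicate 1 (-0.86).

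The RNF149 and RNF150 genes moved in opposite directions. Both encode ligases with a protease-associated domain, a transmembrane segment and a cytosolic RING, and RNF149 is known to act on the kinase BRAF. RNF149 (ILMN_1665877) lay at 9.92 and 9.75 on the pLKO.1 arrays and at 8.52 and 8.60 on the shSiah2 arrays, and fell by 1.28 (SE 0.240, adjusted p = 0.00921 by limma). Its dimmer probe (ILMN_2112524) lay at 5.83 and 6.69 against 5.51 and 5.32, a change of -0.84 that did not pass (adjusted p = 0.126), and was detected on 1 of the shSiah2 arrays. RNF150 (ILMN_1767446) was the member with the highest change, at 7.26 and 7.12 against 8.69 and 8.33. It rose by 1.32 (SE 0.2502, adjusted p = 0.00966 by limma), and the groups stood more than 1 log2 unit apart. RNF150 passed in each of the 4 fits without 1 array, and RNF149 in 3 of them, missing without pLKO.1 replicate 1 at -1.19 (adjusted p = 0.0675).

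Of the other 3 genes, TRIM26, which acts in antiviral signalling, lay at 9.37 and 8.86 on the pLKO.1 arrays and at 8.24 and 8.05 on the shSiah2 arrays. Its fall of 0.98 lay at the threshold (SE 0.262, adjusted p = 0.0495 by limma). TRIM2, a ligase with NHL repeats that acts on neurofilament light chain, lay at 6.23 and 6.06 against 5.21 and 5.01, and was detected on both pLKO.1 arrays and on neither shSiah2 array. TRIM2 thus entered the test only through the group where it is high, so its p-value adds no separate support. It fell by 1.04 (SE 0.243, adjusted p = 0.0283 by limma), which is at least 1.60-fold against the lowest detected signal. RNF214, a RING protein gene, lay at 5.42 and 6.33 against 7.28 and 6.91 on one probe (ILMN_1800420), which rose by 1.22 (SE 0.313, adjusted p = 0.0419 by limma). Its other probe (ILMN_2357777) lay at 6.87 and 6.41 against 7.05 and 6.79 and overlapped between the groups (0.28, adjusted p = 0.602). TRIM26 was lost without pLKO.1 replicate 1 (-0.72) and without either shSiah2 array (-1.07 without replicate 1, -0.88 without replicate 2). TRIM2 was lost without pLKO.1 replicate 1 (-0.95), pLKO.1 replicate 2 (-1.12) or shSiah2 replicate 2 (-0.94), and RNF214 without pLKO.1 replicate 1 (0.76) or shSiah2 replicate 1 (1.03).

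**Figure D3:**
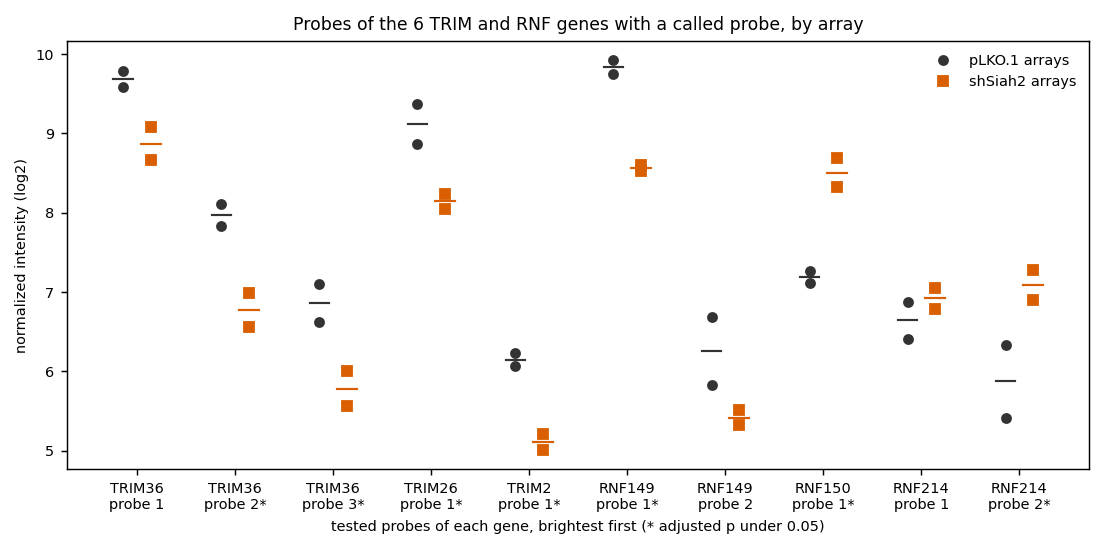
Normalized intensity (y axis, log2) of each tested probe of the 6 genes with a called probe, with 1 point per array (circles for pLKO.1, squares for shSiah2) and a line at the mean of 2. Starred probes had an adjusted p under 0.05, and only the brighter RNF214 probe shows overlapping groups.

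The 250 bases before the annotated starts are shown for the falling genes TRIM36 (2 starts), TRIM26 and RNF149 and for RNF150, the close relative of RNF149 that rose, so that the windows can be compared. They are RefSeq sequences on build GRCh38.p14, written 5′ to 3′ along the gene, at chr5:115180295-115180544 and chr5:115169909-115170158 for TRIM36, chr6:30213407-30213656 for TRIM26, chr2:101308702-101308951 for RNF149 and chr4:141133470-141133719 for RNF150, all on the minus strand. Capitals mark a match on either strand to the letters GGGCGG of a GC box, to those that name the CCAAT box, to CACGTG of an E box, to AGAACA of an androgen response half-site, to an interferon-stimulated response core (GAAA, any 2 bases, then GAAA again), to TATAAA of a TATA box or to TGACGTCA of a cAMP response element, and matches may overlap.
TRIM36, first start: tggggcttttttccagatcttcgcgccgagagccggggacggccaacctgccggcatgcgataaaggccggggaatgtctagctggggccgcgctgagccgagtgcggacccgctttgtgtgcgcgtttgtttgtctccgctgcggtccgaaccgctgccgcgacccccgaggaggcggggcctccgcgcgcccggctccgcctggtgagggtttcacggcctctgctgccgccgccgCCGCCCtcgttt
TRIM36, second start: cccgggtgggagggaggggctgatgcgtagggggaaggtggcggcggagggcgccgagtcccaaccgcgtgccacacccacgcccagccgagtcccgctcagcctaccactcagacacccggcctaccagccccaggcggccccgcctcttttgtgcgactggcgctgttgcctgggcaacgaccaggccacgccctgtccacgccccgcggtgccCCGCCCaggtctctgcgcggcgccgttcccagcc
TRIM26: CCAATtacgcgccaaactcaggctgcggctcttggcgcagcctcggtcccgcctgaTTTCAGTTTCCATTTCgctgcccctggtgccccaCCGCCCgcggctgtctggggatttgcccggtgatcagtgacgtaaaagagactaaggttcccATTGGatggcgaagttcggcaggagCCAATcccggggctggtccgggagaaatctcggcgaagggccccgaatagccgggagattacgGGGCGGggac
RNF149: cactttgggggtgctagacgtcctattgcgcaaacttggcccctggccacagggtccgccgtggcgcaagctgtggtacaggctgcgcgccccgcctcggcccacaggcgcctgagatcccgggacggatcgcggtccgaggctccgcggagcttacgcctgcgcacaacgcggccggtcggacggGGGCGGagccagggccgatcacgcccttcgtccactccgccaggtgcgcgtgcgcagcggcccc
RNF150: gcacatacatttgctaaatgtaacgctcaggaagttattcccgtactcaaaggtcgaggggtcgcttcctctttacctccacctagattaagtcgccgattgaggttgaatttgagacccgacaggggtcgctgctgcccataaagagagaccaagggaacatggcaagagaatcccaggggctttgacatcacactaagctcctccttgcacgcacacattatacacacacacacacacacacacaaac
The TRIM26 window held 2 overlapping interferon-stimulated response cores, which begin 194 and 188 bases before the start, and 3 CCAAT boxes. Such a core was present in 3.02% and a CCAAT box in 32.0% of all 35116 windows. Among the 124 windows of tested TRIM and RNF genes the shares were 5.65% and 38.7%. A GC box stood in both TRIM36 windows and in those of TRIM26 (2) and RNF149 (1). It stood in 42.6% of all windows and in 61.3% of the 124 member windows. The RNF150 window held none of these letters and had a GC content of 49.2%, against 72.8% for RNF149 and a median of 58.0% over all windows. None of these 5 windows held the androgen half-site, which 12.4% of all windows and 8.87% of the member windows held. Among the unprinted windows of TRIM2, which has 6 annotated starts, 1 held the half-site and another an interferon-stimulated response core, and the 2 windows of RNF214 held neither. These matches describe letters and show no binding.

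Of the members, 8 have been linked to the androgen response, and all were tested. None passed on its brightest probe, though TRIM36 fell on its other 2 probes, beside 6.19% of all probes called. The list had a median of 0.09 and a range of -0.82 to 0.82. TRIM28, the corepressor of KRAB zinc finger proteins, lay at 10.76 and 10.64 on the pLKO.1 arrays and at 11.53 and 11.51 on the shSiah2 arrays. The difference of 0.82 missed the threshold (SE 0.238, adjusted p = 0.0665 by limma), passed in 7 of 10 other ways of processing and in none of the fits without 1 array. RNF14, a coactivator of the androgen response, lay at 10.33 and 10.51 against 10.85 and 10.82, a difference of 0.42 (adjusted p = 0.354), and its other probe gave 0.43. The 4 RNF14 values of each probe separated the groups.

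RNF6, a ligase known from castration-resistant cells, differed by 0.50 (0.26 to 0.74 without 1 array, lowest when shSiah2 replicate 1 is dropped, and 0.27 when pLKO.1 replicate 2 is) and TRIM24, a bromodomain coregulator, by 0.24, the latter with groups that overlapped (8.78 and 9.71 against 9.30 and 9.66) and with -0.30 on a second probe. TRIM68 differed by -0.34, TRIM25 by -0.09 and the SUMO-targeted ligase RNF4 by -0.06. TRIM36 was at -0.82. On the brightest probe, shSiah2 values lay below all pLKO.1 values for 2 of the 8 genes, TRIM68 and TRIM36. They lay above all pLKO.1 values for 3, TRIM28, RNF14 and RNF6. Over all probes 24.1% lay below and 26.2% above.

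TRIM genes of antiviral and interferon signalling held 1 call among 8 tested, TRIM26, beside 6.19% of all probes called. The list median was -0.13, with a range of -0.98 to 0.14. TRIM5, which restricts retroviruses, lay at 7.79 and 8.39 against 7.61 and 7.56 on its brightest probe (-0.50, adjusted p = 0.317), while its other probes gave 0.31 and 0.06. The brightest gave -0.20 without pLKO.1 replicate 2 and -0.80 without pLKO.1 replicate 1. TRIM25, which activates the RNA sensor RIG-I, was at -0.09, and RNF135, another ligase of RIG-I, was not in the list. All 3 RNF135 probes had shSiah2 values below the pLKO.1 values, at -0.86, -0.94 and -0.49, and none passed (adjusted p = 0.0641, 0.125 and 0.270 by limma). TRIM6, TRIM22, TRIM23, TRIM34 and TRIM69 had no tested probe here. On the chromosome, TRIM26 lies between TRIM15, which was not tested, and TRIM39, whose brightest probe was at 0.26 (adjusted p = 0.598).

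The chromatin TRIM genes TRIM24, TRIM28, TRIM33 and TRIM66 had 0 calls of 4 and a median of 0.12. The calls in this and the next 2 lists stand beside 6.19% called among all probes. TRIM33, a ligase of SMAD signalling, gave -0.0042 on its brightest probe, and TRIM66 -0.11. Among the 3 tested TRIM genes with NHL repeats, TRIM2, tested through the pLKO.1 group alone, fell. TRIM3 was at -0.41 (adjusted p = 0.480) and TRIM32 at -0.03. Among 3 microtubule and muscle genes, 0 passed on the brightest probe. There TRIM36 was at -0.82, TRIM46 at -0.25 and TRIM9 at -0.13, while TRIM36 fell on its other 2 probes. TRIM46 was among the least reproducible members, at 7.01 and 5.69 against 6.35 and 5.86 (SE 0.375). TRIM54, TRIM55, TRIM63 and TRIM67 had no tested probe.

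RNF ligases of chromatin and DNA damage had 0 calls of 8, beside 6.19% of all probes called, and a median of 0.23. RNF40, a partner in the dimer that ubiquitinates histone H2B, lay at 10.01 and 9.79 against 10.38 and 10.55 (0.56, adjusted p = 0.213), and the other partner, RNF20, was at 0.13. RNF169, a reader of damage-induced ubiquitin, was at 0.52. Leaving out shSiah2 replicate 1 or 2 gave 0.14 or 0.90 for RNF169, and leaving out pLKO.1 replicate 1 or 2 gave 0.25 or 0.79. RNF168, which ubiquitinates histones at breaks, was at 0.32 and RNF8, which acts before it, at 0.14. RNF138 was at 0.35, RNF4 at -0.06 and RNF111, a ligase of TGF-beta signalling, at -0.18. None of these differences passed.

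RING-between-RING ligases, which pass ubiquitin through a cysteine of their own, had 0 calls of 7, beside 6.19% of all probes called. Their median was 0.40. RNF144A lay at 8.01 and 7.84 against 7.37 and 7.25 (-0.61, adjusted p = 0.171) with -0.48 on a second probe, and its relative RNF144B, a p53 target, was on the other side, at 7.66 and 8.27 against 8.54 and 8.48 (0.54, adjusted p = 0.274). RNF19A was at 0.56 on its brighter probe and at -0.02 on another, and RNF19B was at 0.40. The brighter RNF19A probe gave 0.20 without pLKO.1 replicate 1 and 0.91 without pLKO.1 replicate 2. RNF31, the catalytic subunit of the linear ubiquitin complex, was at -0.46, and RNF216 at -0.30.

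Membrane RNF ligases held 2 calls of 17, RNF149 and RNF150, beside 6.19% of all probes called, and a median of -0.07. Besides these, the groups did not overlap, with shSiah2 lower, for 7 genes, namely RNF43, RNF185, RNF13, RNF130, RNF180, RNF5 and RNF26, and with shSiah2 higher for 3. Over all probes 24.1% lay below and 26.2% above. RNF180 was detected on the pLKO.1 arrays only and so was tested through that group alone. RNF43, which removes Wnt receptors from the cell surface, lay at 6.81 and 5.98 against 5.84 and 5.44 (-0.75, adjusted p = 0.184). RNF185 and RNF5, ligases of the endoplasmic reticulum, were at -0.61 and -0.45, and RNF5P1, a near copy whose probe may not be separable from RNF5, was at -0.39. RNF13 was at -0.56 and RNF130 at -0.54. On the upper side RNF103 was at 0.55, RNF170 at 0.43 and RNF128 at 0.25, none of them called.

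**Figure D4:**
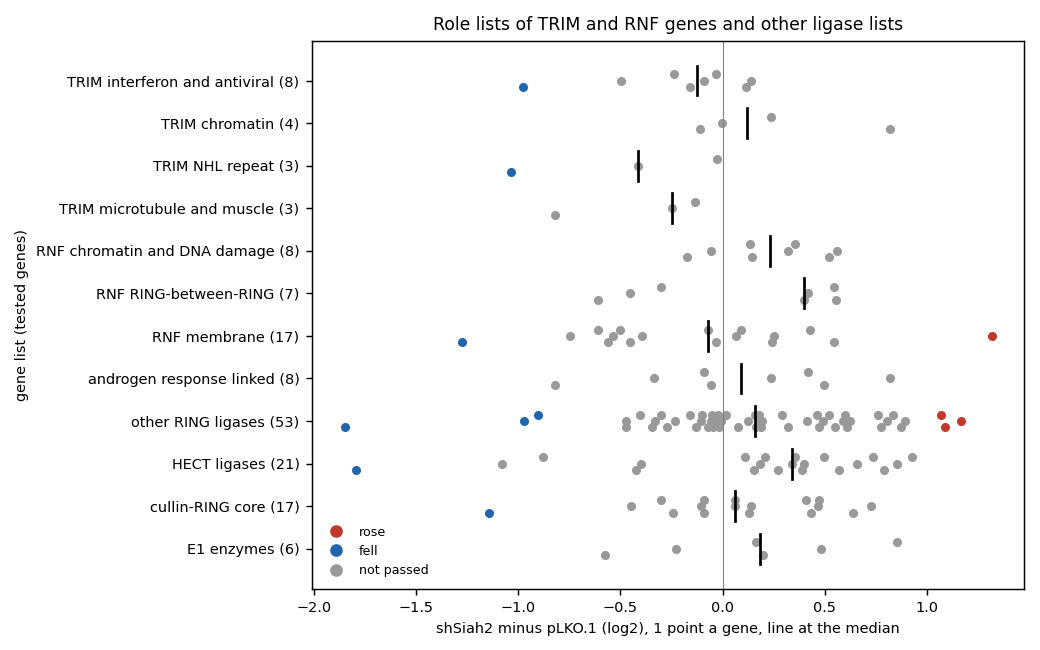
Change of each tested gene (1 point, brightest tested probe, shSiah2 minus pLKO.1 in log2 units) by list, with the number of tested genes in brackets and a black line at the median. Blue and red points passed the threshold: TRIM26, TRIM2 and RNF149 are blue and RNF150 red among the role lists.

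Genes outside these lists, 20 TRIM and 31 RNF, had no call on the brightest probe, with medians of -0.15 and -0.13. RNF214, which is among them, was called on its dimmer probe, as given above. Of all probes, 6.19% were called. Closest to the threshold were RNF4BP at -0.97 (adjusted p = 0.0503), TRIM35 at -0.85 (adjusted p = 0.0606), the RNF135 probe given above (adjusted p = 0.0641) and RNF220 at -0.89 (adjusted p = 0.0822). RNF4BP, a pseudogene, lay at 7.86 and 8.23 against 7.27 and 6.88, and RNF220 at 9.70 and 9.63 against 9.10 and 8.44. TRIM41 lay on the upper side with both probes, at 0.38 and 0.82, and TRIM47 on the lower, at -0.88 (adjusted p = 0.111). TRIM74 was detected on the shSiah2 arrays only, at 0.73 or at least 1.53-fold (adjusted p = 0.102), and its near copy TRIM73 was at -0.17. TRIM74, TRIM2 and RNF180 entered the test through 1 group alone. Apart from TRIM2 and RNF214, these genes were named after their values were seen.

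Several genes were read by more than 1 probe. Of 24 such genes, the probes of 14 shared a sign and those of 10 did not. The median gap between a gene's highest and lowest probe was 0.40, and the widest was 0.94, in RNF214. RNF14 probes differed by 0.02 and RNF146 probes, for a ligase that reads poly(ADP-ribose), by 0.90 with opposite signs (0.62 and -0.29). TRIM36, RNF149 and RNF214, the called genes with more than 1 tested probe, had no probe of opposite sign.

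**Figure D5:**
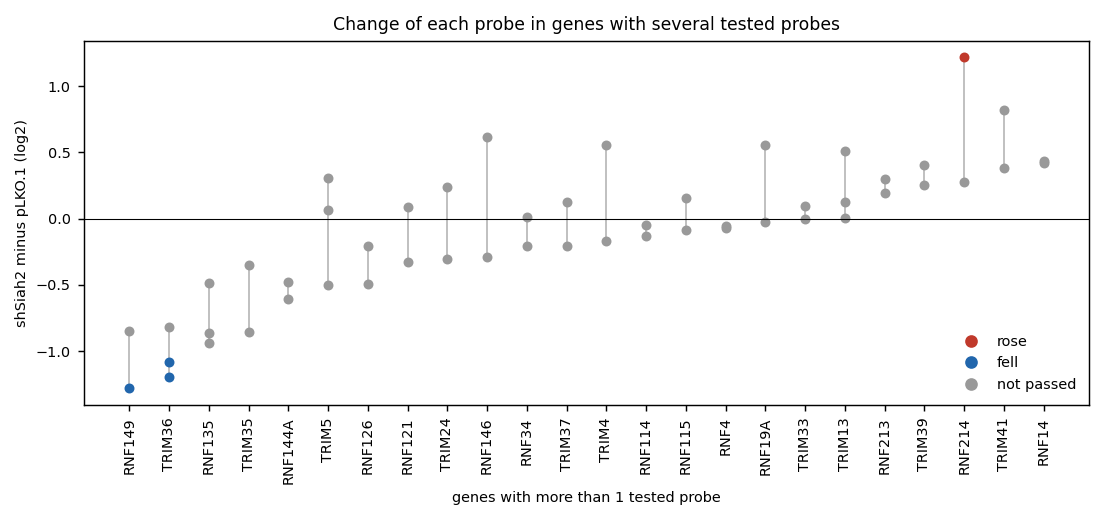
Change of each tested probe (points, shSiah2 minus pLKO.1, log2) in the 24 genes with more than 1 tested probe, joined by a grey line within a gene and ordered by the lowest value. RNF149, TRIM36 and RNF135 lie wholly below 0, RNF14 and TRIM41 wholly above, and 10 genes straddle it.

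Other parts of the ubiquitin system were read from 4 further lists. Of 53 other RING ligases tested, 3 rose and 3 fell, with a median of 0.16, beside 2.47% that rose and 3.72% that fell among all probes. UHRF2 rose by 1.17, the p53 ligase gene MDM2 by 1.09 and PELI2, of Toll-like receptor signalling, by 1.07 (at least 1.42-fold, detected on the shSiah2 arrays only and so tested through that group alone), while SIAH2, CBLC and DTX3 fell by 1.85, 0.97 and 0.91. Of 21 HECT ligases, HERC5, the ligase for the interferon-induced modifier ISG15, fell by 1.79 from 9.64 and 9.92 to 8.03 and 7.94, and the median was 0.34. Of 17 genes of the cullin-RING core, VHL fell by 1.14 on its brightest probe and by 1.10 on another, and the median was 0.06. SKP2, which targets the cell cycle inhibitor p27, fell by 1.38 on a dimmer probe with its brightest at -0.45, and DDB1 rose by 0.96 on a dimmer probe with its brightest at 0.47. No E1 enzyme gene was called by limma among 6 tested, whose median was 0.18 and range -0.58 to 0.85. The calls in the HECT, cullin-RING and E1 lists stand beside 6.19% called among all probes. Apart from SIAH2, these genes were not followed through the alternatives.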

How the data were processed

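Per the labels, total RNA was labelled as biotinylated cRNA for Illumina arrays. The authors deposited a linear intensity and a detection p-value for each of 47228 probes, and a second table of 24733 deposited log2 values of scaling not given in the sources used here. No array software is named. With limma 3.58.1 in R 4.3.3, neqc was run with detection p-values for the background and an offset of 16, which includes quantile normalization and a log2 scale. Probes detected (p under 0.05) on at least 2 of 4 arrays entered lmFit and eBayes (two-sided, no covariates), with p-values adjusted by Benjamini-Hochberg over all 20750 tested probes. Rose and fell mean an adjusted p under 0.05. The code of the fit was checked on simulated data with independent noise, which cannot show whether the arrays are separate cultures. Alternatives changed the background correction, offset, normalization, detection filter, replicate block, variance trend or table, or left out 1 array. Symbols came from the platform annotation, updated through Entrez IDs to a RefSeq table (GRCh38.p14). One symbol was found for 18007 probes, several for 4 and none for 29217, so TRIM and RNF genes on unnamed probes were not analysed here. In lists, each gene stands by its brightest tested probe. A bound sets the brighter group's mean against the dimmer group's, after raising each dim array's value to at least its lowest detected signal. Named were SIAH2, every called TRIM or RNF probe, the androgen-linked members, up to 2 members of each other role list with the largest change, and called genes of the other ligase lists. Further members were named after their values were seen. Members and lists were chosen with earlier results of these data known. Probes of a gene were ranked by signal only to choose or name one, not to compare amounts of RNA, and the number of arrays limits the precision.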

Additional observations from a re-analysis of the deposited data

How the results depend on the processing

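Against 7 called TRIM and RNF probes (4 TRIM, 3 RNF), the count was 13 with offset 50 (7 TRIM, 6 RNF), 12 with the authors' value table (6 RNF), 11 with detection on all 4 arrays or with detection p under 0.01 on at least 2 arrays (5 RNF each), 13 with an intensity trend in eBayes (7 TRIM, 6 RNF) and 2 with no filter on dim probes (0 TRIM by limma, with 13 at an unadjusted p under 0.05), where all probes gave 640. The share of all probes called moved too, from 6.19% to 8.68%, 8.82%, 8.42%, 9.33%, 8.44% and 1.36% in that order. RNF calls were 5 without background correction. The replicate block gave 14 (7 TRIM, 7 RNF) and 1815 of all probes (8.75%). Same-numbered arrays correlated at 0.09 in their deviations from the group means. The labels give them a shared number only, and this correlation cannot show whether they share a culture or batch. Without 1 array the count was 1 to 9 (TRIM 0 to 3, RNF 1 to 6), with 520 to 1329 of all probes. The TRIM median was then -0.152 to -0.039 and the RNF median -0.128 to -0.020, and the RNF median was -0.092 with cyclic loess. SIAH2 passed in every alternative run, at -2.004 to -1.694 without 1 array and -1.09 without background correction. Over 22 named member probes and 10 ways of processing, 12 values gained and 11 lost the call and 0 turned sign; without 1 array, 14 lost it and 6 uncalled values turned sign, in RNF4 (-0.174 to 0.062), TRIM24 (-0.227 to 0.703), TRIM3 (-0.835 to 0.0073) and TRIM46 (-0.907 to 0.412). RNF150 passed in all 14. Dim probes of TRIM2, TRIM36 (ILMN_1674580) and RNF214 lost the call without background correction, at -0.39, -0.47 and 0.55. The brighter RNF149 probe kept it, at -1.07. The cause of these shifts was not tested.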
